A study of Danio rerio with 4 samples.

Results

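The genes described are 10 zebrafish genes of 2 pigment cell types, the silvery iridophores and the yellow xanthophores. They were picked by symbol from the authors' table of 27472 genes: pnp4a, ltk, tfec, gart, paics, gch2, xdh, aox5, csf1ra and pax7a, each of which matched 1 row. Their levels were compared between zebrafish of the AB strain kept in 4 µM bisphenol C (BPC, a bisphenol) from 4 hours post fertilization (hpf) and zebrafish given the solvent control dimethyl sulfoxide (DMSO), all collected at 72 hpf. Each group had 2 libraries, numbered 1 and 3. The labels carry no mutation or transgene, name no organ, and leave unsaid the number of animals per library and whether the replicates are separate clutches. The p-values therefore reflect only how far replicate libraries differ, and that difference may be technical. Pigment cells are a small part of such a sample, and fewer cells of a type cannot be told apart from less RNA per cell.

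Iridophores reflect light from stacked crystals of guanine, a purine, and xanthophores are coloured by pteridines, which are made from the purine nucleotide GTP, and later by carotenoids. Both cell types arise from the neural crest, as do the black melanophores, and both draw on purine synthesis. Each also has its own lineage genes: the receptor Ltk and the transcription factor Tfec in iridophores, and the receptor Csf1ra and the transcription factor Pax7a in xanthophores.

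The values are FPKM (fragments counted for each kilobase of a transcript and scaled by the total mapped in that library), so levels can be compared between genes. Depth per library is unknown. The FPKM totals were 355364 to 355583 in DMSO and 422245 to 425611 in BPC. Changes were tested with limma on log2(FPKM + 1) over the 19873 genes that reached 0.5 FPKM in 2 or more libraries, and a call is an adjusted p (Benjamini-Hochberg over all those genes) below 0.05. The 10 genes all passed that filter. The added 1 shrinks the log2 change of genes at low levels, and the median change of all tested genes was -0.12.

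Of the 6 enzyme genes 4 were higher in BPC zebrafish, and of the 4 lineage genes 0 were. Whether the enzyme and lineage genes differ was not tested. The lineage genes were at 1.65 to 5.24 FPKM, where the added 1 shrinks changes more than at higher levels. In all, gart, paics, gch2 and aox5 rose, ltk fell, and pnp4a, xdh, tfec, csf1ra and pax7a did not pass the test. Across all tested genes 24.6% were called, 7.06% higher and 17.5% lower. At that share, 0 higher calls among 4 lineage genes says little about them. Leaving out a library of either group leaves a single library there. With a BPC library left out the 10 genes kept their calls. With a DMSO library left out fewer genes were called, among the 10 and among all tested genes. A call lost in that way need not be particular to its gene. Without DMSO replicate 1 and without DMSO replicate 3, in that order, the log2 change was -0.63 and -0.57 for ltk. It was 0.737 and 0.807 for aox5, and 1.09 and 0.64 for gart, so these changes kept their direction. The groups did not overlap for 8 of the 10 genes, 6 higher and 2 lower, but that held for 68.1% of all tested genes, 23.0% higher and 45.1% lower, so the lack of overlap says little about these genes. Summed over the 10 genes, the level was 114 and 104 FPKM in the DMSO libraries and 249 and 237 FPKM in the BPC libraries. The plot of levels by library shows that paics and gch2 make up most of that sum.

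**Figure D1:**
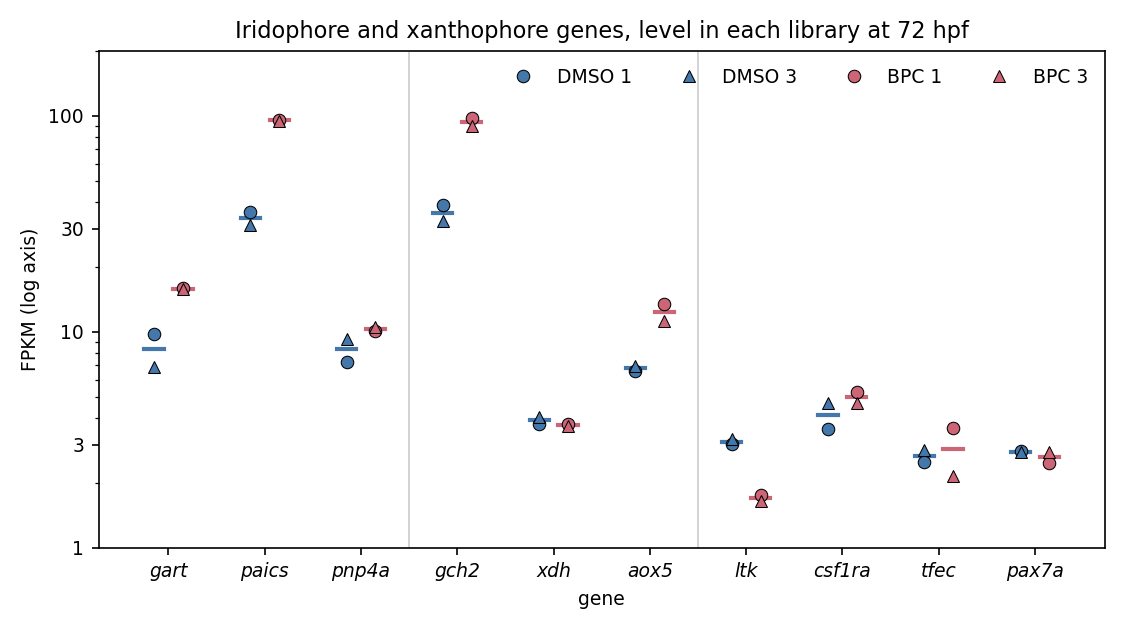
Level of each of the 10 genes in FPKM (log axis) in the 2 DMSO and 2 BPC libraries; circles are replicate 1, triangles replicate 3 and bars group means, with purine, pteridine and lineage genes separated by grey lines. The BPC libraries lie above the DMSO libraries for gart, paics, gch2, aox5 and pnp4a and below them for ltk. They are barely apart for csf1ra (above) and xdh (below).

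Of the 3 purine enzyme genes among the 10, paics had the largest log2 change. The protein of paics joins a pair of consecutive steps of de novo purine synthesis, a carboxylation and the addition of aspartate. The transcript was at 35.9 and 31.3 FPKM in DMSO against 96.1 and 94.5 FPKM in BPC. The lower BPC library was 2.64 times the higher DMSO library. The mean ratio was 2.84 and the log2 change 1.48 (SE 0.11, 95% interval 1.21 to 1.75, limma adjusted p = 0.00155), which ranked 115 from the top among the 19873 tested genes. The gart gene, whose trifunctional enzyme acts earlier in the same pathway, was at 9.77 and 6.89 FPKM in DMSO against 15.9 and 15.8 FPKM in BPC. The BPC libraries nearly coincided, whereas the DMSO libraries were spread. The log2 change of gart was 0.87 (SE 0.16, 95% interval 0.48 to 1.26, limma adjusted p = 0.0142). Without DMSO replicate 3 that call was lost (log2 change 0.64, limma adjusted p = 0.0958).

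The iridophore enzyme gene pnp4a did not follow gart and paics. It encodes a purine nucleoside phosphorylase, which splits nucleosides to free bases such as guanine, and it is a common marker of iridophores. The levels were 7.28 and 9.28 FPKM in DMSO and 10.1 and 10.5 FPKM in BPC. The groups were separate but close, and the log2 change was 0.29 (SE 0.14, 95% interval -0.04 to 0.62, limma adjusted p = 0.168). The interval leaves room for no change or for an increase of up to 0.62. In the authors' deposited table pnp4a has a q-value of 0.0251 and is not marked significant.

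Of the 3 pteridine enzyme genes among the 10, gch2 had the largest log2 change. It encodes a GTP cyclohydrolase, the enzyme of the entry step from GTP into pteridines, and is an early marker of the xanthophore lineage. Its transcript was at 38.8 and 32.5 FPKM in DMSO against 97.2 and 90.0 FPKM in BPC. Both BPC libraries lay well above the DMSO pair, by 2.32 times at the nearest. The log2 change was 1.37 (SE 0.12, 95% interval 1.07 to 1.67, limma adjusted p = 0.00219), rank 142 from the top. The aldehyde oxidase gene aox5, also an early xanthophore marker, was at 6.60 and 6.97 FPKM in DMSO against 13.4 and 11.3 FPKM in BPC. Its mean ratio was 1.82 and its log2 change 0.77 (SE 0.13, 95% interval 0.47 to 1.07, limma adjusted p = 0.00963). That call was lost without DMSO replicate 1 (limma adjusted p = 0.102) and without DMSO replicate 3 (0.0813). The xanthine dehydrogenase gene xdh, whose enzyme oxidizes pteridines as well as purines, was at 3.74 and 4.05 FPKM in DMSO against 3.72 and 3.65 FPKM in BPC. Its log2 change was -0.06 (SE 0.12, 95% interval -0.36 to 0.23, limma adjusted p = 0.736), and its sign turned with median centring (0.09) and with quantile normalization (0.10).

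The aox5 value has a further limit. In the RefSeq annotation of the GRCz12tu assembly, which need not be the annotation the authors used, the span of aox5 also holds the hatching enzyme genes he1.1, he1.2 and he1.3 and meets the end of bzw1a. Of these, he1.1 rose from 3.10 and 3.47 FPKM to 199 and 106 FPKM, and he1.2 from 1.42 and 1.55 to 63.6 and 25.7 FPKM. The he1.1 level in BPC 1 was above that in BPC 3. Each of the 10 genes except pnp4a and pax7a, aox5 among them, had the same order. The gene bzw1a was at 56.3 and 58.3 FPKM in DMSO against 69.4 and 53.7 FPKM in BPC (limma adjusted p = 0.667). Whether reads of these neighbours entered the aox5 value was not tested. In the same annotation paics overlaps ppat, another purine synthesis gene, and xdh overlaps a further protein-coding gene. Whether overlapping reads entered the paics, ppat or xdh values was not tested. Also there, sox12 lies in the span of pnp4a. The sox12 gene rose from 13.8 and 15.5 to 29.4 and 26.4 FPKM (limma adjusted p = 0.00546), and its part in the pnp4a value was not tested.

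The iridophore receptor gene ltk was the member that fell. Ltk is a receptor tyrosine kinase that iridophores need to form and survive. The transcript was at 3.01 and 3.18 FPKM in DMSO against 1.75 and 1.65 FPKM in BPC, with tight replicates and no overlap. The DMSO mean was 1.83 times the BPC mean, and the log2 change was -0.60 (SE 0.13, 95% interval -0.91 to -0.30, limma adjusted p = 0.0204). The change stayed negative under all 13 alternatives tried (-0.96 to -0.27). The call was lost without DMSO replicate 1 (limma adjusted p = 0.141), without DMSO replicate 3 (0.156), after quantile normalization (0.0742) and when no filter was used (0.0526). The activating ligands of Ltk were scarce: alkal1 was at 0.237 and 0.270 FPKM in DMSO against 0.0357 and 0.0358 FPKM in BPC, below the filter. The ligand gene alkal2a was at 0.557 and 0.399 against 0.6996 and 1.07 FPKM (limma adjusted p = 0.151), and alkal2b at 0.565 and 0.655 against 0.692 and 0.652 FPKM (limma adjusted p = 0.784).

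The remaining lineage genes did not pass the test. The iridophore transcription factor gene tfec, of the same family as the melanophore regulator mitfa, was at 2.49 and 2.82 FPKM in DMSO against 3.57 and 2.15 FPKM in BPC. The BPC libraries lay on either side of the DMSO libraries, with a log2 change of 0.06 (95% interval -0.42 to 0.53, limma adjusted p = 0.857). The xanthophore receptor gene csf1ra was at 3.55 and 4.69 FPKM in DMSO against 5.24 and 4.69 FPKM in BPC. Its groups met at 4.69 FPKM, and the log2 change was 0.23 (95% interval -0.14 to 0.60, limma adjusted p = 0.306). The transcription factor gene pax7a, needed for the xanthophore lineage, was at 2.81 and 2.77 FPKM in DMSO against 2.48 and 2.78 FPKM in BPC. Its log2 change was -0.06 (95% interval -0.37 to 0.25, limma adjusted p = 0.749), or 0.09 with median centring and 0.15 with quantile normalization. For tfec the value was -0.16 with TPM scaling, so no direction is given for tfec, xdh or pax7a.

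**Figure D2:**
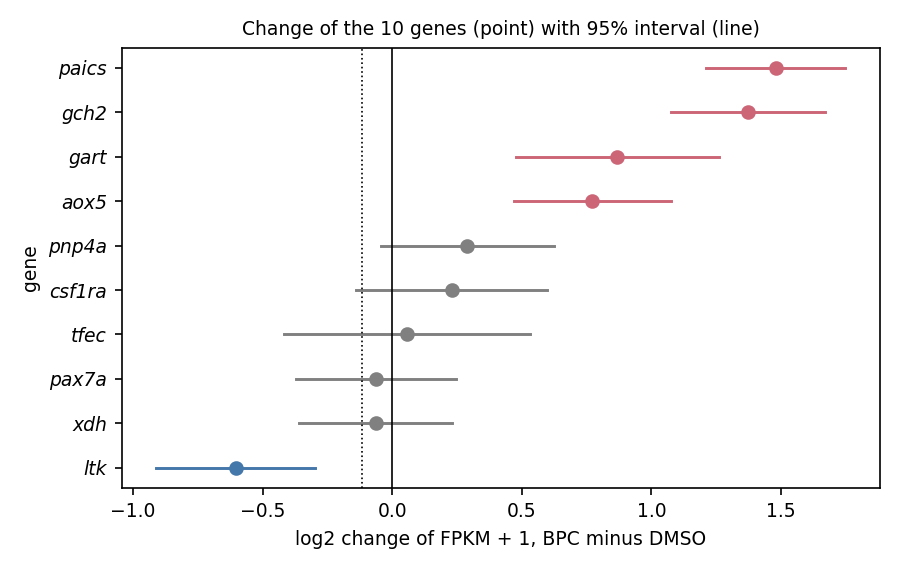
Log2 change of FPKM + 1 (BPC minus DMSO, points) with its 95% limma interval (lines) for the 10 genes, called higher in red, called lower in blue and not called in grey; the dotted line marks the median of all tested genes, -0.12. The intervals of paics and gch2 lie wholly above 1, and that of ltk lies wholly below 0.

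The order of levels among the 10 genes was much alike in the 4 libraries. The genes gch2 and paics took the top 2 places in every library and did not separate from each other beyond their replicate spread: their means were 35.6 ± 4.50 and 33.6 ± 3.201 FPKM in DMSO and 93.6 ± 5.06 and 95.3 ± 1.09 FPKM in BPC (SD, n = 2). In DMSO gart, pnp4a and aox5 followed at 8.33 ± 2.04, 8.28 ± 1.41 and 6.79 ± 0.266 FPKM, with gart overlapping both of the others. In BPC gart stood apart at 15.8 ± 0.0725 FPKM, above aox5 at 12.3 ± 1.501 and pnp4a at 10.3 ± 0.336. The 4 lineage genes and xdh were lowest, between 1.65 and 5.24 FPKM, and ltk moved from place 8 in both DMSO libraries to place 10 in both BPC libraries. Levels within a library were also set against a lineage gene of the same cell type. The ratio of gch2 to csf1ra was 10.95 and 6.92 in DMSO and 18.5 and 19.2 in BPC. The ratio of gch2 to pax7a was 13.8 and 11.7 in DMSO and 39.1 and 32.4 in BPC, and that of pnp4a to ltk was 2.42 and 2.92 in DMSO and 5.75 and 6.40 in BPC. Against tfec, the other iridophore lineage gene, pnp4a stood at 2.93 and 3.29 in DMSO and 2.82 and 4.89 in BPC, with overlapping groups. These ratios are descriptions and were not tested.

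The rest of the de novo purine pathway was read from a list of 15 tested genes that includes gart and paics. Of these, 7 rose (46.7%) and 2 fell (13.3%), against 7.06% and 17.5% of all tested genes. The list's median log2 change was 0.24 against -0.12 for all tested genes. Without gart and paics, 5 of 13 rose, 2 fell and the median was -0.03. The rises lay in the steps up to inosine monophosphate (IMP), the common precursor of AMP and GMP, a split of the list made after the values were seen: 7 of 8 genes rose there and 0 fell, also at an unadjusted p below 0.05. Higher calls among these 8 numbered 3 without DMSO replicate 1 and 1, paics, without DMSO replicate 3. Besides gart and paics, the genes that rose were prps1a, prps1b, ppat, pfas and atic. Of these, prps1a and prps1b also lost their calls without BPC replicate 1, with TPM scaling and when no filter was used. The atic gene, whose enzyme closes the ring to IMP, was at 22.2 and 19.4 FPKM in DMSO against 54.9 and 41.5 FPKM in BPC (log2 change 1.16, limma adjusted p = 0.00576; 1.07 and 0.0613 without DMSO replicate 3). The ppat gene, for the committing amidotransferase, was at 8.85 and 9.20 FPKM in DMSO against 15.7 and 15.9 FPKM in BPC (log2 change 0.75, limma adjusted p = 0.00632). The pfas gene, for a step between activities of the Gart enzyme, was at 5.79 and 4.96 against 12.4 and 9.41 FPKM (log2 change 0.89, limma adjusted p = 0.0123). The calls of ppat and pfas were lost without DMSO replicate 1 (limma adjusted p = 0.0866 and 0.0811) and without DMSO replicate 3 (0.069 and 0.103). The lyase gene adsl was at 39.2 and 33.3 against 47.7 and 38.2 FPKM, with overlapping groups (limma adjusted p = 0.270).

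Past IMP 0 of 7 genes rose and 2 fell, with 0 higher and 3 lower at an unadjusted p below 0.05. Of all tested genes 7.06% were called higher and 17.5% lower, so these counts say little about the 7 genes. Whether these genes differ from those up to IMP was not tested. The adenylosuccinate synthase genes adss1 and adss2, on the branch to AMP, fell. Their relative adssl was at 18.9 and 17.3 FPKM in DMSO against 15.0 and 15.7 FPKM in BPC and did not pass (limma adjusted p = 0.178). The levels of adss1 were 44.6 and 49.2 FPKM in DMSO and 22.0 and 20.0 FPKM in BPC (log2 change -1.13, limma adjusted p = 0.00264). The adss1 enzyme is the muscle form in mammals. The levels of adss2 were 16.2 and 14.7 against 10.6 and 7.67 FPKM (log2 change -0.71, limma adjusted p = 0.0249). The adss1 call held under every alternative. That of adss2 was lost without either DMSO library, with median centring (limma adjusted p = 0.0535) and when no filter was used. TPM scaling gave 6 lower genes of the 7. On the branch to GMP, from which guanine and pteridines derive, impdh1a was at 6.44 and 4.87 FPKM in DMSO against 3.23 and 4.21 FPKM in BPC, with separate groups (log2 change -0.49, limma adjusted p = 0.0814). On the same branch impdh1b was at 32.0 and 33.8 against 34.5 and 29.9 FPKM, impdh2 at 20.9 and 22.2 against 19.2 and 19.0 FPKM, and gmps at 9.93 and 10.9 against 9.15 and 9.30 FPKM. These 4 genes did not pass, the last 3 with limma adjusted p = 0.856, 0.270 and 0.331.

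**Figure D3:**
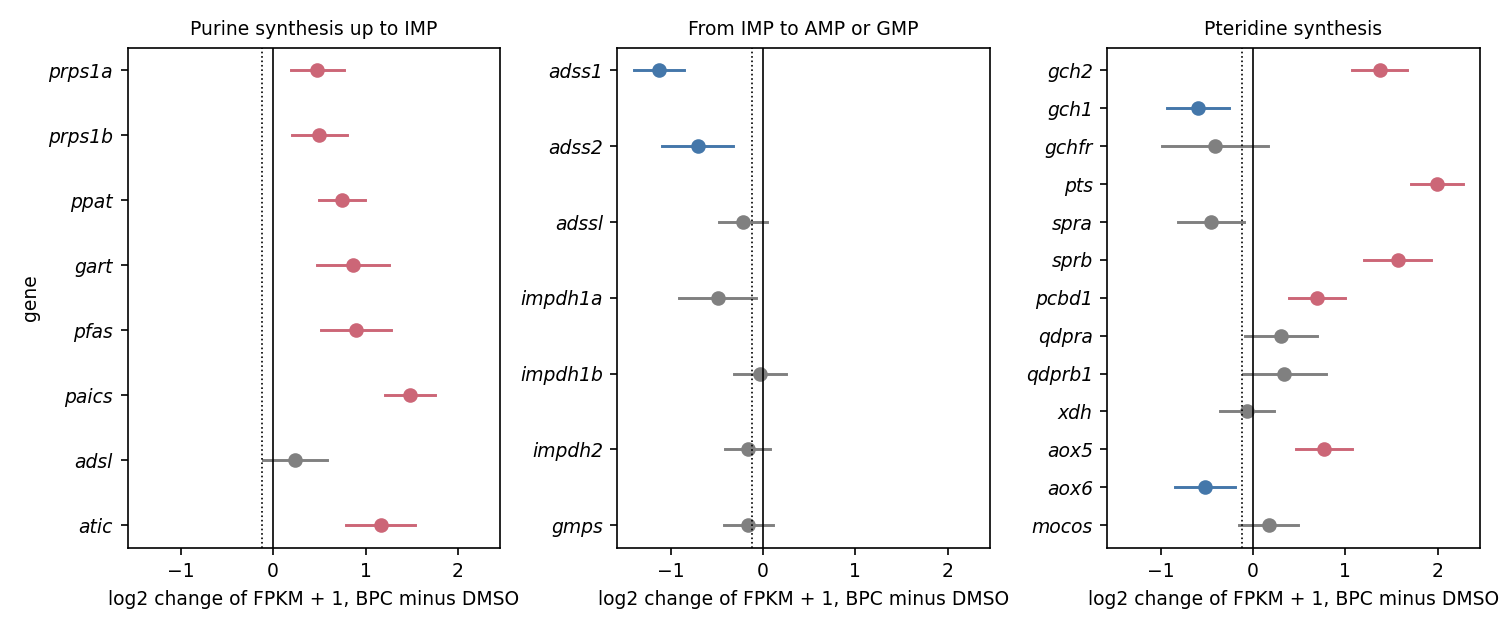
Log2 change of FPKM + 1 (BPC minus DMSO, points) with 95% limma intervals (lines) for tested genes of purine synthesis up to IMP, from IMP to AMP or GMP, and of pteridine synthesis; red is called higher, blue called lower, grey not called, and the dotted line is the median of all tested genes. Of the genes up to IMP 7 of 8 are red, past IMP 0 of 7, and in pteridine synthesis gch2, pts, sprb, pcbd1 and aox5.

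Of 21 tested genes of purine salvage and breakdown, 1 rose (4.76%) and 7 fell (33.3%), against 7.06% and 17.5% of all tested genes. The list's median log2 change of -0.10 lay close to the -0.12 of all tested genes. Without pnp4a and xdh, which the list holds, 1 of 19 rose and 7 fell. Most of the lower calls were lost without DMSO replicate 1 and without DMSO replicate 3. The relatives of pnp4a did not move alike: pnp4b was at 2.76 and 4.01 FPKM in DMSO against 0.145 and 0.0511 FPKM in BPC (log2 change -1.98, limma adjusted p = 0.00211), pnp6 at 4.72 and 4.45 against 1.31 and 1.59 FPKM (log2 change -1.19, limma adjusted p = 0.00377), and pnp5a at 14.3 and 15.5 against 29.0 and 24.3 FPKM (log2 change 0.79, limma adjusted p = 0.00864). The pnp5a call was lost without DMSO replicate 1 (limma adjusted p = 0.0979) and without DMSO replicate 3 (0.0715), and that of pnp6 without DMSO replicate 1 (0.0528). The pnp genes are copies of one another, so reads may have been split between them. The AMP deaminase gene ampd3a fell from 2.32 and 2.40 to 1.001 and 0.893 FPKM (limma adjusted p = 0.0101).

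The authors' deposited pathway table, made from the single pair BPC 3 and DMSO 3, puts purine metabolism at the top of its list, with 31 of 424 selected genes against 151 of 5689 annotated genes (p = 1.37e-07). In the authors' deposited gene list for that pathway 4 of the 31 genes are higher in BPC: paics, gart, atic and nme3. The other 27 are lower and include 7 phosphodiesterases and 5 nucleotide cyclases by their descriptions, enzymes that handle cyclic nucleotides and do not make purines. Over all 4 libraries, limma called 17 of 139 tested genes with that annotation higher (12.2%) and 44 lower (31.7%). For all tested genes these shares were 7.06% and 17.5%. In the authors' deposited table of all genes, paics and gch2 are marked significant, as are 8.38% of its genes. There gart (q = 2.35e-06), aox5 (q = 3.46e-10), ltk (q = 0.00309) and pnp4a (q = 0.0251) have q-values below 0.05 without that mark; each marked gene there changes at least 2-fold.

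In the pteridine and tetrahydrobiopterin list 13 genes were tested. Of these, 5 rose (38.5%) and 2 fell (15.4%), against 7.06% and 17.5% of all tested genes. Without gch2, aox5 and xdh, which the list holds, 3 of 10 rose and 2 fell. The step after Gch2 is made by the product of pts, 6-pyruvoyltetrahydropterin synthase. Its transcript was at 8.41 and 8.01 FPKM in DMSO against 38.3 and 33.2 FPKM in BPC, a larger log2 change than that of any of the 10 genes (1.99, SE 0.12, limma adjusted p = 0.000679). The sepiapterin reductase gene sprb was at 0.476 and 0.783 FPKM in DMSO against 3.94 and 3.66 FPKM in BPC (log2 change 1.56, limma adjusted p = 0.00245). Its copy spra was at 4.24 and 5.01 against 3.44 and 2.76 FPKM and did not pass (limma adjusted p = 0.0669). The cofactor recycling gene pcbd1 rose from 13.2 and 12.3 to 23.2 and 19.4 FPKM (log2 change 0.69, limma adjusted p = 0.0129). That call needed both DMSO libraries (limma adjusted p = 0.0975 without replicate 1 and 0.116 without replicate 3), and without either of them 3 genes of the list were higher and 0 lower.

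The close relatives of gch2 and aox5 moved the opposite way. The gene gch1, the cyclohydrolase that serves tetrahydrobiopterin synthesis in monoamine neurons, fell from 2.81 and 3.15 to 1.78 and 1.48 FPKM (log2 change -0.60, limma adjusted p = 0.0264). The gene aox6, which lies next to aox5 in the RefSeq annotation, fell from 1.71 and 1.56 to 0.771 and 0.913 FPKM (log2 change -0.52, limma adjusted p = 0.0359). The ratio of gch2 to gch1 within a library was 13.8 and 10.3 in DMSO and 54.5 and 61.0 in BPC, and that of aox5 to aox6 was 3.87 and 4.46 in DMSO and 17.4 and 12.4 in BPC. Both calls depended on scaling, and both were lost when no filter was used. The gch1 call was lost with median centring (limma adjusted p = 0.0612) and quantile normalization (0.0979), and the aox6 call likewise (0.0987 and 0.177) and with the replicate block (0.0533). Without DMSO replicate 1 the values were 0.139 for gch1 and 0.201 for aox6, without DMSO replicate 3 they were 0.186 and 0.150, and the aox6 call was also lost without BPC replicate 1 (0.0869). Of 11 tested monoamine neuron genes, gch1 among them, 3 fell (27.3%) and 0 rose, against 17.5% and 7.06% of all tested genes. The others that fell were ddc and slc6a2. At an unadjusted p below 0.05, 0 were higher and 6 lower. The lower calls were lost without either DMSO library.

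Xanthophore genes beyond the 5 members were read from a list of 22 tested genes, of which 8 rose and 0 fell; 1 was lower at an unadjusted p below 0.05. Without either DMSO library 4 rose. Without the members the numbers were 6 of 17 and 0, and the median log2 change was 0.11. The 6 include pts and sprb, which were already counted in the pteridine list. The sugar transporter family genes slc2a15b and slc2a11b, which in medaka are needed for pteridine-bearing pigment cells, rose. The levels of slc2a15b were 4.81 and 5.15 FPKM in DMSO and 16.4 and 14.0 FPKM in BPC (log2 change 1.44, limma adjusted p = 0.00209), and those of slc2a11b were 6.79 and 7.03 against 11.9 and 12.8 FPKM (log2 change 0.76, limma adjusted p = 0.00704). The slc2a11b call was lost without DMSO replicate 1 (limma adjusted p = 0.0901) and without DMSO replicate 3 (0.0741). Of the ligands of Csf1ra, il34 rose from 0.816 and 1.07 to 2.56 and 1.93 FPKM (limma adjusted p = 0.0219, but 0.163 without DMSO replicate 1, 0.0976 without DMSO replicate 3 and 0.0639 without BPC replicate 1), whereas csf1a (limma adjusted p = 0.730) and csf1b (0.592) did not pass. The pax7a copy pax7b was at 5.42 and 5.69 against 4.29 and 5.79 FPKM (limma adjusted p = 0.562), and the carotenoid genes scarb1 and bco1 had overlapping groups.

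Iridophore genes were read from a list with pnp4a, ltk, tfec and 22 further tested genes. Of 25 tested list genes, 2 rose (8%) and 8 fell (32%), against 7.06% and 17.5% of all tested genes. The list's median log2 change was -0.21, against -0.12 for all tested genes. The 2 that rose were atic and tspan36, a tetraspanin gene also active in melanophores (13.1 and 15.2 against 27.4 and 25.4 FPKM, limma adjusted p = 0.00615, and 0.0811 without DMSO replicate 1). Those that fell, besides ltk, were fhl2a, fhl2b, lypc, gpnmb, alx1, akap12a and trim63a, of which trim63a encodes a muscle ubiquitin ligase; without DMSO replicate 3 each of these calls other than that of fhl2a was lost. The lypc gene was at 14.0 and 14.5 FPKM in DMSO against 6.90 and 7.99 FPKM in BPC (log2 change -0.86, limma adjusted p = 0.00613), and fhl2a at 15.3 and 13.9 against 6.76 and 7.28 FPKM (log2 change -0.96, limma adjusted p = 0.00423). The lypc call was lost without DMSO replicate 1 (limma adjusted p = 0.0736) and without DMSO replicate 3 (0.0729), and that of fhl2a without DMSO replicate 1 (0.0635). The iridophore-associated homeobox gene alx4a was at 5.76 and 6.36 against 6.73 and 6.71 FPKM (limma adjusted p = 0.441). The number that fell depended on scaling and on the DMSO libraries: 1 without either of them, 5 with median centring, 4 with quantile normalization and 13 with TPM scaling. Whether the xanthophore and iridophore lists differ from each other was not tested.

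Genes of neighbouring and other cell types moved as follows. Of 15 melanophore genes, 10 rose and 0 fell, with 2 lower at an unadjusted p below 0.05, and 6 rose without DMSO replicate 1; slc45a2 was at 3.91 and 4.53 FPKM in DMSO against 17.8 and 16.0 FPKM in BPC. Their summed level was 80.1 and 88.7 FPKM in DMSO and 240 and 195 FPKM in BPC. Of 18 neural crest and pigment progenitor genes limma called 0, with 2 higher and 2 lower at an unadjusted p below 0.05; median centring gave 3 higher and TPM scaling 5 lower. Among these, sox10 was at 7.98 and 7.65 against 6.17 and 7.33 FPKM, and mitfa at 0.997 and 1.04 against 1.46 and 1.03 FPKM.

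Several of the 10 genes are also active outside pigment cells, and the levels of other cell types are set beside them. Across all tested genes 7.06% were called higher and 17.5% lower, and a list near these shares says little about its cell type. Since csf1ra is also a macrophage gene, macrophage and microglia genes were read: 0 of 13 rose and 2 fell, with 0 higher at an unadjusted p below 0.05, and their sum, carried mostly by apoeb, was 248 and 248 FPKM in DMSO and 353 and 242 FPKM in BPC. The macrophage regulator spi1b was at 1.13 and 1.01 against 0.979 and 0.497 FPKM, and the paralogue csf1rb at 1.01 and 0.865 against 0.470 and 0.352 FPKM (limma adjusted p = 0.0531). No gene of the list was at 0 in both BPC libraries; cd74a and cd74b were listed at 0 in BPC 3. Dividing cells of every type need gart and paics. Of 21 DNA replication and cell cycle genes, 7 rose and 0 fell, with 11 higher and 0 lower at an unadjusted p below 0.05. Without either DMSO library 0 rose, and without BPC replicate 3 14 rose. Their sum was 478 and 473 FPKM in DMSO and 719 and 580 FPKM in BPC. The ratio of paics to the replication clamp gene pcna was 0.314 and 0.281 in DMSO and 0.474 and 0.603 in BPC, with separate groups. The ratio of gart to pcna was 0.0855 and 0.0618 against 0.0784 and 0.101, with overlapping groups. Both ratios rest on pcna alone of the 21 genes and were not tested. The eye's pigment epithelium, which shares tfec, had 6 of 17 genes higher and 4 lower (2 and 1 without DMSO replicate 1), with sums of 124 and 129 FPKM in DMSO and 198 and 186 FPKM in BPC. Of 12 muscle progenitor genes, which share pax7a, 1 rose and 2 fell (0 and 0 without either DMSO library), with sums of 37.8 and 39.0 against 42.7 and 35.6 FPKM. Of 15 dorsal neural tube and midbrain genes, 3 rose (0 when a library other than BPC replicate 3 was left out) and 0 fell, with 7 higher and 0 lower at an unadjusted p below 0.05, and their sums were 96.1 and 103 against 128 and 114 FPKM. The part of these cell types in the values of the 10 genes was not tested. The pigment epithelium and melanophore lists share genes, among them dct and pmela, which were both called higher.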

How the data were processed

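RNA was measured in 2 DMSO and 2 BPC libraries of zebrafish at 72 hpf; poly(A) RNA was taken and sequenced in pairs with a dUTP-marked strand, per the labels' protocols. The authors deposited FPKM values, 1 per gene and library, with their ratio (fold) of group means, its log2, p-values and q-values; for the genome build, the use of strand in counting and the tool behind these p-values nothing is stated (not given in the sources used here). HISAT2 2.0.4, cutadapt 1.9, edgeR, DESeq2 and StringTie 1.3.4d are listed, without their roles, per the submitters' processing notes. The authors' deposited pathway table gives counts of genes for a single pair of libraries. Read counts were not recovered from the FPKM values, and depth is unknown.

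Limma 3.58.1 (R 4.3.3) was fitted with 1 term, the group, and an intensity trend to log2(FPKM + 1) of genes that reached 0.5 FPKM in 2 or more libraries, two-sided. The 10 genes and the 14 other lists were chosen with earlier results of these data known. Of 238 list symbols 229 were matched, by the files' symbols and then a name table; mpeg1.1 was among those not matched. Lists are described by counts and medians, with no set test. 1 of the lists is not reported here. Genes named were the 10; up to 4 called genes of each list with the smallest adjusted p, or the 2 of highest level where none passed; and a set of relatives and lineage markers. Further genes were named after their values were seen: adsl, adss2, adssl, the impdh genes, gmps, prps1a, prps1b, spra and the alkal genes. So were il34, csf1a, csf1b, scarb1, bco1, the further lower iridophore genes and the annotated neighbours. Called genes of some lists are given only as counts. The code was checked on simulated data in which 200 genes were changed. Limma called 51.6% of the log2 changes of 1.5 and 2.9% of those of 0.8, so an uncalled gene may still have changed. With so few genes changed, these shares need not match those in the real data. Alternatives were other pseudocounts (0.1, 5), filters, scalings (median centring, quantile normalization, TPM), no trend, a replicate block and each library left out, where the lone library of a group is assumed to vary like the other group.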

Additional observations from a re-analysis of the deposited data

How the results depend on the processing

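The calls of paics and gch2 held under all 13 alternatives, with log2 changes of 1.24 to 1.63 and 1.14 to 1.52. No alternative turned a called direction among the 10 genes. The number of the 10 called higher was 4, and 2 to 4 with 1 library left out; the number called lower was 1, 0 to 1 with 1 library left out, and 0 with no filter and with quantile normalization, where the ltk change was -0.60 and -0.39. With 1 library left out the log2 changes were -0.63 to -0.57 for ltk, 0.64 to 1.09 for gart, 0.66 to 0.89 for aox5 and -0.21 to 0.32 for tfec. Uncalled changes crossed 0 for tfec (-0.16 with TPM scaling), xdh (0.0887 with median centring, 0.101 with quantile normalization) and pax7a (0.0888 and 0.148). Over all tested genes 1404 were higher and 3480 lower: 748 and 2020 with no filter, 2441 and 1997 with median centring, 1948 and 2111 with quantile normalization, 759 and 7286 with TPM scaling, and 149 to 2040 and 452 to 3983 with 1 library left out. The median change of all tested genes was 0.04, 0.02 and -0.36 under the 3 scalings in that order.

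With 1 library left out, the de novo purine list had 1 to 7 genes higher and 1 to 3 lower, the pteridine list 3 to 5 and 0 to 2, the iridophore list 1 to 2 and 1 to 8, and the xanthophore list 4 to 8 and 0 to 1; the lowest counts came without a DMSO library. Lower genes of the purine list numbered 1 with no filter, 1 with median centring and 6 with TPM scaling. Lower genes of the pteridine list numbered 0 with no filter, median centring or quantile normalization, and 1 with the replicate block. Lower iridophore genes numbered 4 with no filter. Lower xanthophore genes numbered 3 with TPM scaling and 1 with the replicate block. The causes were not tested. The replicate numbers are not said to pair the libraries, and same-numbered libraries did not deviate together (correlation 0.01 across genes, which are not independent replicates). With the replicate block 1333 genes were higher and 3282 lower, and the 10 genes kept their calls.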
